A study of Mus musculus with 4 samples.

Results

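Slc7a11, Slc3a1, Prepl and Slc3a2 are 4 of the 24847 gene symbols counted in mouse heart RNA, taken here as a set around the import of cystine. The first pair was chosen by its measured counts: Slc7a11 was low in both mutant libraries and Slc3a1 differed in the DCM (dilated cardiomyopathy) pair. Prepl was added because it lies opposite Slc3a1, and Slc3a2 because its protein is the partner of the Slc7a11 protein. All values of these 4 genes are therefore descriptions, with no test. The study sequenced whole-heart RNA as 4 libraries, and each library pooled 3 hearts of mice aged 12 weeks. In the HCM (hypertrophic cardiomyopathy) pair, dC10mut stands for cMyBP-CΔC10mut mice, C57BL/6 animals whose transgene is MYBPC3 with the 25-bp variant. NTG stands for nontransgenic C57BL/6 animals. In the DCM pair, the library called tt is of the genotype cMyBP-C(t/t) on FvB/N, and the library called control is of FvB/N mice. The sources used here do not give the promoter or line of the transgene, nor the genotype of the control mice.

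The cystine-glutamate exchanger carries cystine into cells against glutamate, and the cysteine made from it feeds the synthesis of glutathione. Slc7a11 encodes its transporting light chain (xCT) and Slc3a2 the heavy chain that brings it and several other light chains to the cell surface. Slc3a1 encodes a second heavy chain (rBAT), best known from kidney tubule and small intestine, where with the light chain Slc7a9 it reabsorbs cystine; its loss causes cystinuria. Prepl encodes a serine hydrolase of the prolyl oligopeptidase family. The transcription factors Atf4 and Nfe2l2 are known activators of Slc7a11.

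Each group has 1 library, so a difference has no replicate check and every interval below covers counting error only. Reads copied by PCR count more than once, which these intervals do not cover. The libraries held 187365 (dC10mut), 170543 (NTG), 186420 (tt) and 176633 (control) counts. A single count thus equals 5.34 to 5.86 CPM (counts-per-million of the library total), and a count of 0 allows up to 3 counts. Xist, the RNA that coats the inactive X chromosome, held 8 counts in dC10mut and 0 in NTG, and 14 in tt and 0 in control. Tsix, the gene antisense to it, held 147 in dC10mut and 0 in NTG, and 159 in tt and 0 in control, while the Y-linked gene Ddx3y held 0 in dC10mut and 1 in NTG, and 0 in tt and 14 in control. Sex and genotype cannot be told apart in either pair. In bulk heart RNA, fewer cells of a type and less RNA per cell cannot be told apart either. Of 10 cardiomyocyte markers, 9 held a count and the summed counts were 6156 in dC10mut, 4238 in NTG, 4565 in tt and 4739 in control. Myl2, Actc1 and Tnni3 made up most of these, whereas Tnnt2, with 9 transcript rows, held 0 in every library and Myh6, with 2, held 1 count in tt alone. Mb with 3 rows, Pln with 2 and Atp2a2 with 3 held at most 3 counts in any library. The sums thus rest on few of the markers.

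Whether a motif has a part in the counts was not tested, and the promoter windows of the genes that differ are given first as a description only. They run from 250 bases before to 50 bases after the annotated start (RefSeq, GRCm38.p6), read 5′ to 3′ on the gene's strand. The Slc7a11 window is chr3:50443564-50443863, minus strand, and the Slc3a1 window is chr17:85028097-85028396, plus strand. Capitals mark matches, on either strand, to 4 motifs: TGATGNAA (the core of the amino acid response element bound by Atf4), TGACNNNGC (the core of the antioxidant response element bound by Nfe2l2), TATAAA and CACGTG.
Slc7a11: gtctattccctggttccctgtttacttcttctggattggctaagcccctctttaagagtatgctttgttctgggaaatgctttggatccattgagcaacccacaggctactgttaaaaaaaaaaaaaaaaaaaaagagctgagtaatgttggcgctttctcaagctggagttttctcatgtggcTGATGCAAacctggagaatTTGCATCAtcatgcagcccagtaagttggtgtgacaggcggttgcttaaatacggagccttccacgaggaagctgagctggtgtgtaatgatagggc
Slc3a1: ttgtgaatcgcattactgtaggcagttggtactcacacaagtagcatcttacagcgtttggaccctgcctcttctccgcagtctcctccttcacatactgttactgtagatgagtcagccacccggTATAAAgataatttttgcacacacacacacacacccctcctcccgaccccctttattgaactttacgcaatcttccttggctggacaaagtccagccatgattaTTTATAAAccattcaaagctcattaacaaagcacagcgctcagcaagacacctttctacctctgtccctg

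The Slc7a11 window held TGATGNAA at 2 places on opposite strands, 66 to 59 and 47 to 40 bases before the start. At least 1 match was found in 3.97% of 32851 mouse promoter windows of the same length, and 2 or more in 23 windows, or 0.07%. The Slc3a1 window held no TGATGNAA and 3 matches to TATAAA, of which a pair overlap on opposite strands near the start; 13.6% of windows held that motif. TGACNNNGC (12.4% of windows) and CACGTG (7.15%) had no match in either window. Only these exact spellings were searched, so other forms of the elements would not be found. The windows of Prepl and Slc3a2 held none of the 4 motifs. A match describes these letters and is not evidence of binding. Of the 23 genes with a doubled TGATGNAA, 11 are among the counted symbols and 3 reached 10 counts in a library; these were named after their values were seen. Besides Slc7a11 they were Aars, an alanyl-tRNA synthetase, with 9 counts in dC10mut and 11 in NTG, and 2 in tt and 8 in control, and Chchd10, a mitochondrial protein gene, with 82 in dC10mut and 39 in NTG, and 35 in tt and 55 in control.

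Slc7a11 was at or near 0 in both mutant libraries and present in NTG and control. It held 1 count in dC10mut and 18 in NTG, and 0 in tt and 12 in control. All of these fell on its single transcript row (chromosome 3, 50364938 to 50443611, GRCm38, minus strand, 12 exons). On the scale of TMM-scaled CPM (counts divided by a library total adjusted for composition), these were 5.34 in dC10mut (95% Poisson interval 0.135 to 29.8) and 112 in NTG (66.5 to 177). They were 0 in tt (0 to 19.1) and 65.9 in control (34.1 to 115). The intervals of mutant and control did not overlap within either pair.

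**Figure D1:**
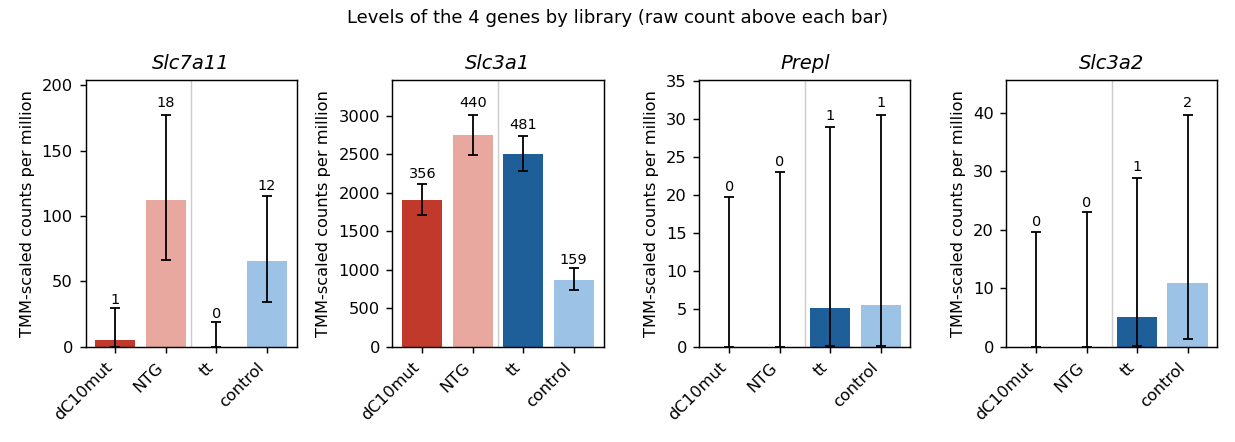
TMM-scaled CPM (y axis of each panel) of Slc7a11, Slc3a1, Prepl and Slc3a2 in the 4 libraries. Each bar is 1 library, the error bar its exact 95% Poisson interval and the number above it the raw count: Slc7a11 stands at 1 in dC10mut and 18 in NTG and at 0 in tt and 12 in control, Slc3a1 is lowest in control, and Prepl and Slc3a2 do not pass 2 counts.

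The log2 ratio of Slc7a11 was -3.83 in dC10mut against NTG (interval -9.77 to -1.73), with a prior count of 0.5, and -2.91 with a prior count of 2. In the DCM pair Slc7a11 was at least 4.24-fold lower in tt than in control when tt is set at the floor of 3 counts. The exact interval of that log2 ratio reached up to -1.56, a smaller difference than the floor gives. The fitted value depends on the prior count, at -4.63 with 0.5 and -2.80 with 2. A gene was called higher or lower where it differed at least 2-fold and the interval excluded equality. Slc7a11 was called lower in both pairs. Among genes with at least 10 counts in a library of the pair, 7.54% were called lower in dC10mut and 4.81% in tt. These values chose the gene and support nothing about it. Of 6921 genes measured in both pairs, 15 (0.217%) were called lower in both. Of 1482 genes with at least 10 counts in both NTG and control, Slc7a11 was the 1 gene with at most 1 count in both dC10mut and tt. These limits fit the counts by which Slc7a11 was chosen, so its standing alone is no support either. In the other direction, of 1637 genes with at least 10 counts in both dC10mut and tt, D630041G03Rik and Tsix held at most 1 in both NTG and control.

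NTG and control, which differ in strain label, were the highest levels of Slc7a11 and could not be told apart by counting error. The log2 ratio of control against NTG was -0.74 (-1.95 to 0.37). The next level down was dC10mut, which stood below control as well, at a log2 ratio of -3.08 (-9.04 to -0.87). No fold is given between dC10mut and tt, since both were under the floor. No exon of another gene lies opposite the Slc7a11 exons in GENCODE M21, unlike those of Slc3a1. That describes the annotation and does not show that the Slc7a11 counts are of Slc7a11 RNA. The share of counts with an opposite-strand exon was 64.1% in dC10mut and 67.0% in NTG, and 63.6% in tt and 65.2% in control. From which strand the reads counted for Slc7a11 came was not tested.

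**Figure D2:**
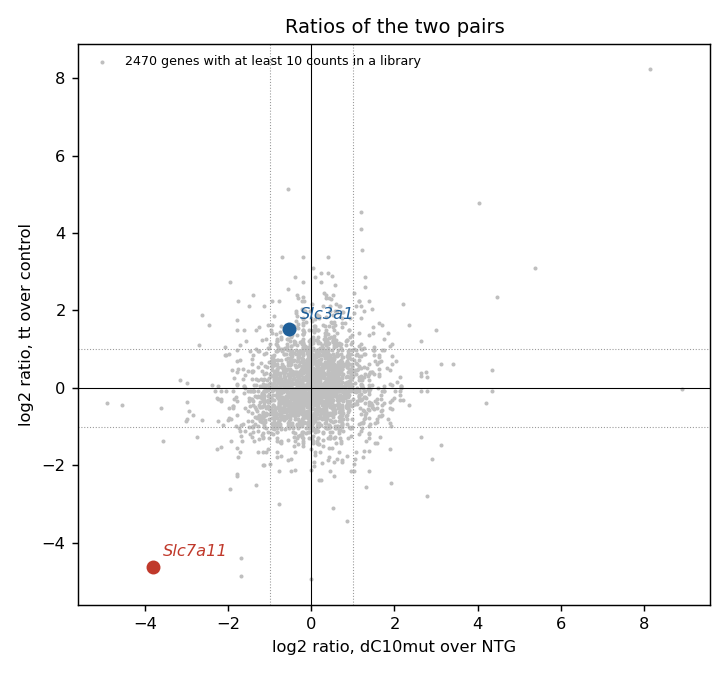
Log2 ratio of dC10mut over NTG (x axis) against log2 ratio of tt over control (y axis) for genes with at least 10 counts in a library (grey points), with dotted lines at 2-fold. Slc7a11 (red) lies at -3.83 on the x axis and far below 0 on the y axis, where its position depends on the prior count because tt held 0 counts, and Slc3a1 (blue) lies at -0.53 and 1.51.

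The Slc3a1 row was among the most counted in every library and was lowest in control. It held 356 counts in dC10mut and 440 in NTG, and 481 in tt and 159 in control. By count it ranked 77th of 6795 genes in dC10mut and 56th of 6704 in NTG, and 51st of 6971 in tt and 178th of 6969 in control. On the TMM-scaled scale these levels were 1902 CPM in dC10mut (1709 to 2110) and 2745 in NTG (2494 to 3013). They were 2496 in tt (2278 to 2730) and 874 in control (743 to 1021). The control library stood apart from the other 3, whose levels were within 1.44-fold of one another.

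In the DCM pair Slc3a1 was 2.85-fold higher in tt (log2 ratio 1.51, 1.25 to 1.78). Of genes with at least 50 counts in a library of that pair, 6.85% were called higher. In the HCM pair it was 1.44-fold lower in dC10mut (log2 ratio -0.53, -0.73 to -0.32) and was not called. The log2 ratio of the DCM pair exceeded that of the HCM pair by 2.04 (1.71 to 2.37, counting error by a normal approximation). Control was also 3.13-fold lower than NTG (log2 ratio -1.65, -1.92 to -1.39), and 2.91% of genes with at least 50 counts in these libraries were called lower. The comparisons of tt and of NTG with control share the control library. From the highest level down, tt did not differ from NTG beyond counting error (log2 ratio -0.14, -0.33 to 0.05), and dC10mut was below tt (-0.39, -0.59 to -0.19). Of 630 genes with at least 50 counts in a library, 3 had an interval below equality in dC10mut against NTG and were called higher in tt against control: Slc3a1, the leucine-rich repeat gene Lrrc15 and the M-band gene Myom2, named after their values were seen.

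The counts on the Slc3a1 row cannot be assigned to Slc3a1 RNA alone. Slc3a1 (chromosome 17, 85028376 to 85064236, plus strand, 10 exons) and Prepl converge, and the last exon of Slc3a1, 601 bases or 26.5% of its exon length of 2271 bases, lies wholly within the last exon of 3 of the 4 Prepl transcripts. The kit preserved strand, but the sources do not say whether the counting used it. Reads of Prepl and of Slc3a1 can therefore not be told apart over those 601 bases. At the Xist and Myh7 loci, looked at after their values were seen, most counts stood on the antisense gene. Tsix, known mainly from early embryonic cells, held 147 in dC10mut and 159 in tt, where Xist held 8 in dC10mut and 14 in tt. Mhrt, which faces the end of the myosin gene Myh7, held 6620 in dC10mut and 1778 in NTG, and 447 in tt and 698 in control, where Myh7 held 11 in dC10mut and 27 in NTG, and 20 in tt and 20 in control. Xist and Myh7 have 2 transcript rows each and Tsix and Mhrt 1 each, as Prepl has 4 and Slc3a1 has 1. Symbols with more than 1 row seldom held many counts in these libraries. The part of row number in the imbalance at these loci was not tested. Whether the Slc3a1 row holds reads of Prepl was not tested, and its differences between libraries are those of the row. The fourth Prepl transcript (85064530 to 85090224, minus strand) ends short of Slc3a1.

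**Figure D3:**
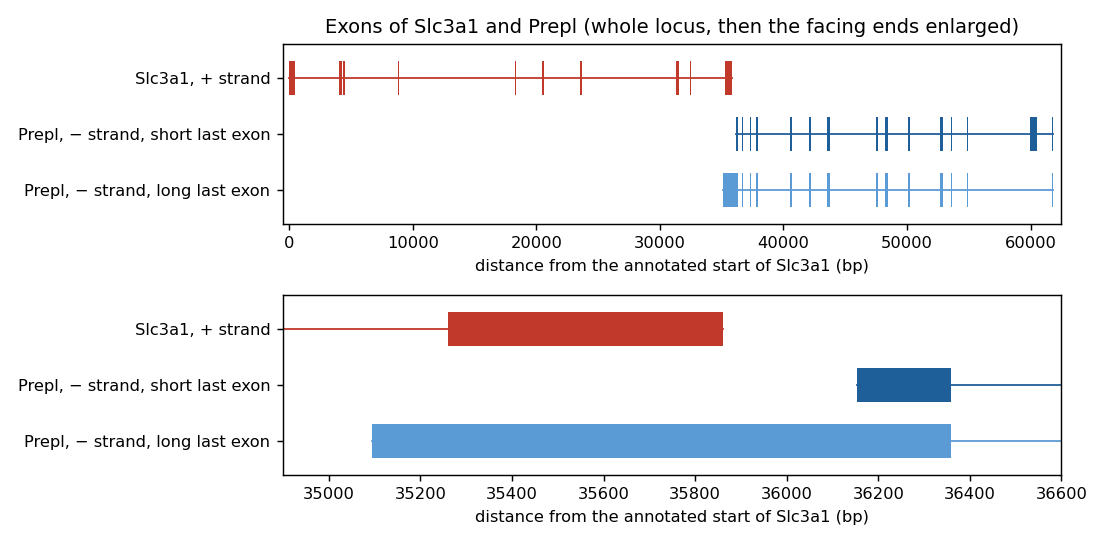
Exons (boxes) and introns (lines) of Slc3a1 and of the short and long forms of Prepl, drawn to scale by distance in bp from the annotated start of Slc3a1, with the facing ends enlarged in the lower panel. The last exon of Slc3a1 lies inside the long last exon of Prepl over 601 bases and outside the short one.

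Prepl held 0 counts in dC10mut and 0 in NTG, and 1 in tt and 1 in control, summed over its 4 transcript rows. The 2 counts fell on the transcript with the short last exon, and the 3 rows with the long last exon held 0 in every library. Slc3a1 thus took 100% of the counts of the Slc3a1 and Prepl rows in dC10mut (exact Clopper-Pearson 95% interval 98.97 to 100) and 100% in NTG (99.17 to 100). It took 99.8% in tt (98.85 to 99.99) and 99.4% in control (96.57 to 99.98). These are shares of the counts on the rows and not of the RNA. Prepl has 4 rows and Slc3a1 has 1, and the part of row number in the shares was not tested. Per kilobase of exon, Slc3a1 had 837 TMM-scaled CPM in dC10mut and 1209 in NTG, and 1099 in tt and 385 in control. Prepl had 0 in dC10mut and 0 in NTG, and 1.90 in tt and 2.01 in control, and Slc7a11 had 0.579 in dC10mut and 12.2 in NTG, and 0 in tt and 7.15 in control, on the same scale.

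Markers of tissues in which Slc3a1 is best known held few counts. Of 10 kidney tubule markers, 8 held 0 in every library, among them Slc34a1, Lrp2, Umod and Slc7a9, the light chain partner of Slc3a1. The summed counts of that list were 44 in dC10mut and 50 in NTG, and 59 in tt and 57 in control, nearly all of them from Slc5a2, whose exons lie opposite those of BC017158. Of 10 small intestine markers, 9 held 0 and Vil1, opposite Usp37, held 0 in dC10mut and 2 in NTG, and 8 in tt and 2 in control. Of 10 neuron markers, 4 held a count, with sums of 16 in dC10mut and 19 in NTG, and 22 in tt and 15 in control. A marker at 0 does not show that its cell type was absent, since the cardiomyocyte marker Tnnt2 also held 0 in these heart libraries. Of the markers at 0, 3 of kidney tubule, 0 of small intestine and 4 of neuron have more than 1 transcript row. The part of these cell types in the Slc3a1 counts was not tested. Genes with an opposite-strand exon made up 21.1% of the 24214 symbols placed on the annotation but 73.2% of the 351 placed symbols with at least 100 counts in a library, Slc3a1 among them.

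Slc3a2, the heavy chain partner of Slc7a11, was near 0 throughout. It held 0 counts in dC10mut and 0 in NTG, and 1 in tt and 2 in control, over 2 transcript rows. These are within the floor of 3 counts, so no fold is given and its level was not measurable at this depth. Prepl and Slc3a2 both have more than 1 transcript row, while Slc7a11 and Slc3a1 have 1 each. Of 7900 symbols with more than 1 row, 222 (2.81%) reached 10 counts in a library, against 2248 of 16947 symbols with 1 row (13.3%). How reads shared between transcripts of a gene were counted is not given in the sources used here, and the low counts of Prepl and Slc3a2 are read with that limit.

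Among the 8 light chains of these heavy chains, Slc7a10, a transporter of small neutral amino acids, was the other one besides Slc7a11 with more than 1 count in a library. It held 17 counts in dC10mut and 21 in NTG, and 22 in tt and 32 in control, and lies opposite Lrp3. Its log2 ratios were -0.52 against NTG (-1.54 to 0.46, dC10mut) and -0.61 against control (-1.48 to 0.21, tt), so neither differed beyond counting error. Slc7a5, the large neutral amino acid transporter, held 1 in dC10mut and 0 in NTG, and 1 in tt and 1 in control. Slc7a7, Slc7a9 and Slc7a13 held 0 in every library, as did all 5 cationic amino acid transporters of the family. Slc7a7 and Slc7a9 have 3 transcript rows each, Slc7a13 has 1, and 4 of the 5 cationic transporters have more than 1.

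Of 15 glutamate and neutral amino acid transporters, 6 held a count. Slc38a9, the lysosomal arginine sensor, held 3 counts in dC10mut and 24 in NTG (log2 ratio -3.02, -5.60 to -1.50), and 5 in tt and 9 in control (-0.86, -2.86 to 0.80). Slc1a1, a glutamate transporter that also carries cysteine, held 0 in dC10mut and 5 in NTG, and 0 in tt and 1 in control; it lies opposite 4430402I18Rik. Both were called lower in dC10mut and neither in tt. Slc38a9 was also called lower in control against NTG (-1.55, -2.89 to -0.44), so NTG was the library that stood out for it. Slc6a6, the taurine transporter, held 12 in dC10mut and 18 in NTG, and 9 in tt and 12 in control, and Slc25a12, the mitochondrial aspartate-glutamate carrier, 15 in dC10mut and 15 in NTG, and 16 in tt and 18 in control.

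Downstream of cystine import, 5 thiol antioxidant genes were called higher in dC10mut than in NTG and none in tt than in control, while the glutathione synthesis genes held few counts. The pathway lists hold 192 symbols besides the 4 genes. In dC10mut against NTG, 94 could be compared, with a count in at least 1 library of the pair, of which 7 were called higher and 2 lower; over all 8009 compared genes 1.8% were called higher and 2.53% lower. All 7 had at least 10 counts in a library, where 27 list genes were compared and 5.5% of all genes were called higher. The median log2 ratio over those 27 genes was -0.12, against 0.01 over all such genes. In tt against control, 93 could be compared, of which 0 were called higher and 2 lower, against 2.69% and 1.58% of all 8226 compared genes. Of the 30 with at least 10 counts in that pair, the same numbers were called, against 7.92% higher and 4.81% lower of all such genes, and their median was -0.06.

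Of the 7 genes, 5 belong to the list of thiol antioxidants and glutathione transferases, of which 19 were compared in the HCM pair with a median log2 ratio of 0.95, against -0.11 over all genes compared. In the DCM pair the median of that list was -0.33 over 18 genes, against -0.05. Txn2, the mitochondrial thioredoxin, held 38 counts in dC10mut and 13 in NTG (2.45-fold, log2 ratio 1.29, 0.38 to 2.36). Prdx1, a peroxiredoxin, held 32 in dC10mut and 11 in NTG (2.43-fold, log2 ratio 1.28, 0.29 to 2.45), and the microsomal glutathione transferase Mgst3 25 in dC10mut and 9 in NTG (2.31-fold, log2 ratio 1.21, 0.10 to 2.53). The transferase Gstk1 held 15 in dC10mut and 4 in NTG (log2 ratio 1.58, 0.03 to 3.73), and Gstm5, opposite 4933431E20Rik, 15 in dC10mut and 3 in NTG. Transferases of a class are close in sequence, so reads of Gstm5 and its relatives may be shared. The other two were Got1, the cytosolic aspartate aminotransferase, which also breaks down cysteine sulfinate (99 counts in dC10mut and 40 in NTG, log2 ratio 1.08, 0.54 to 1.65), and Taldo1, of the pentose phosphate pathway (17 in dC10mut and 5 in NTG, log2 ratio 1.46, 0.04 to 3.34). Gstk1 and Taldo1 were no longer called, leaving 5 of the 7, when the scaling used the genes without an opposite-strand exon. A macrophage marker was also called higher in dC10mut: Lyz2, a lysozyme, held 28 in dC10mut and 6 in NTG (log2 ratio 1.92, 0.70 to 3.56), and 5 in tt and 28 in control (log2 ratio -2.45). The 10 macrophage markers, of which Adgre1, Cd14 and Ctss were at 0, summed to 55 in dC10mut and 19 in NTG, and 19 in tt and 51 in control; their part in the thiol genes was not tested. For all 7 NTG held the fewest counts of the 4 libraries, with control equal to it for Gstm5. None of the 7 was called in the DCM pair: Txn2 held 18 in tt and 20 in control, Prdx1 30 in tt and 22 in control, Mgst3 15 in tt and 14 in control, and Got1 71 in tt and 72 in control. Gstk1 held 7 in tt and 12 in control, Gstm5 6 in tt and 3 in control, and Taldo1 10 in tt and 13 in control. The most counted members of the list that were not called were Prdx3, with 34 in dC10mut and 21 in NTG, and 31 in tt and 24 in control, and Gsto1, with 15 in dC10mut and 14 in NTG, and 16 in tt and 25 in control. The 7 genes are short, with a median exon length of 1229 bases against 1789 over all genes called higher in dC10mut and 2538 over all genes with at least 10 counts; the part of length was not tested.

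**Figure D4:**
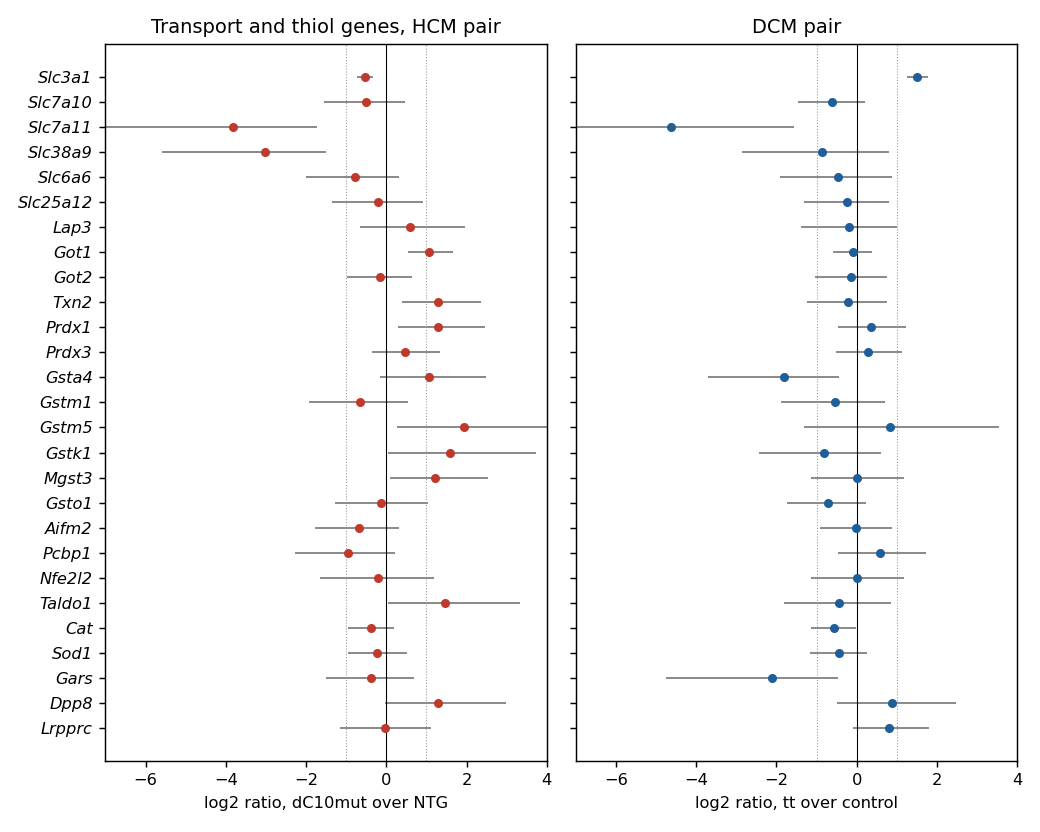
Log2 ratios (x axis) of dC10mut over NTG (left) and tt over control (right) for transport, thiol and regulatory genes with at least 15 counts in a library, with 95% counting intervals as bars and dotted lines at 2-fold. Slc7a11 lies far left in both panels, where bars are cut at the left edge, and Slc3a1 lies at -0.53 and 1.51. Got1, Txn2, Prdx1 and Mgst3 lie right of 1 in the left panel and between -0.23 and 0.36 in the right one. Gstm5, Gstk1, Taldo1, Dpp8 and Gsta4 also lie right of 1 in the left panel. In the right panel these lie at 0.82, -0.81, -0.44, 0.87 and -1.82.

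The 2 genes called lower in tt were Gsta4 and Gars. Gsta4, a glutathione transferase that handles products of lipid peroxidation, held 5 counts in tt and 18 in control (3.54-fold lower, log2 ratio -1.82, -3.72 to -0.45). It held 20 in dC10mut and 8 in NTG, which did not differ beyond counting error (log2 ratio 1.06, -0.15 to 2.49). Gars, the glycyl-tRNA synthetase and a known Atf4 target, held 3 counts in tt and 14 in control (log2 ratio -2.12, -4.74 to -0.46), and 15 in dC10mut and 17 in NTG (-0.39, -1.51 to 0.69).

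Genes of glutathione synthesis and turnover gave little to set beside Slc7a11. Of 16, 8 held 0 in every library, including Gclc, the catalytic subunit of the rate-limiting ligase, Ggt1 and Chac1; 6 of those 8 have more than 1 transcript row. Gclm, the other subunit of that ligase, held 0 counts in dC10mut and 4 in NTG, and 2 in tt and 2 in control. Lap3, a leucine aminopeptidase that also cleaves cysteinylglycine, was the most counted, with 16 in dC10mut and 9 in NTG, and 13 in tt and 14 in control. None of the 16 was called in either pair. In the synthesis and breakdown of cysteine, the enzymes Cbs and Cth, which make it from methionine, and Cdo1, which oxidises it, held 0 in every library. Cbs has 3 transcript rows, Cdo1 has 2 and Cth has 1. Of the 7 transporters of thiols in lysosome and mitochondrion, 3 held a count and none was called.

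No regulator of Slc7a11 and few other targets of its activators were called. Nfe2l2 held 10 counts in dC10mut and 10 in NTG, and 15 in tt and 14 in control, and Atf4, with 2 transcript rows, held 0 in all. Of 19 regulators, 13 held a count and 0 were called in either pair, of 12 compared in each. Over all compared genes 1.8% were called higher and 2.53% lower in dC10mut, and 2.69% and 1.58% in tt. At these shares, lists as small as those of this paragraph hold few calls or none. The small number of calls therefore says little about their genes. Of 35 Atf4 target genes, 20 held 0 in every library, among them Trib3, Sesn2 and Phgdh, each with 1 transcript row. Slc7a11 was the 1 target called lower in dC10mut, of 12 compared, and Slc7a11 and Gars were those called lower in tt, of 13 compared. Without Slc7a11 and Slc3a2 the median log2 ratio of that list was -0.49 over 11 genes in dC10mut against NTG and -0.05 over 11 in tt against control. Of 20 Nfe2l2 target genes, 16 held a count. Without Slc7a11 their median log2 ratio was -0.47 over 14 genes in dC10mut against NTG and -0.43 over 15 in tt against control. Taldo1 was called higher and Slc7a11 lower in dC10mut, and Slc7a11 and Gsta4 lower in tt. Catalase (Cat) held 51 in dC10mut and 57 in NTG, and 49 in tt and 69 in control, superoxide dismutase (Sod1) 34 in dC10mut and 34 in NTG, and 31 in tt and 40 in control, and Nqo1 4 in dC10mut and 7 in NTG, and 4 in tt and 4 in control. Of the 18 genes of ferroptosis and iron handling, 0 were called in either pair, and the most counted was Aifm2, a ferroptosis suppressor opposite H2afy2, with 15 in dC10mut and 21 in NTG, and 24 in tt and 23 in control.

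Among the neighbours of Slc3a1 and the relatives of Prepl no other gene was called. These lists are also too small to hold many calls at the shares of all genes called. Ppm1b held 2 counts in dC10mut and 4 in NTG, and 3 in tt and 7 in control, and Camkmt 0 in dC10mut and 2 in NTG, and 1 in tt and 0 in control. Lrpprc, the most counted neighbour after Slc3a1, held 16 in dC10mut and 14 in NTG, and 30 in tt and 16 in control (DCM log2 ratio 0.81, -0.10 to 1.80). Of 9 members of the prolyl oligopeptidase family, Dpp8 led with 18 in dC10mut and 6 in NTG, and 14 in tt and 7 in control, and Prep, its founding member, held 4 in dC10mut and 8 in NTG, and 8 in tt and 8 in control.

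The genes most like Slc3a1 over the 4 libraries were found by the root mean square difference of centred log2 CPM, among 1332 genes with at least 50 counts in all. Klhdc3 was nearest, at 0.08, with 19 counts in dC10mut and 21 in NTG, and 23 in tt and 7 in control. Cpn2 followed at 0.17 (50 in dC10mut and 56 in NTG, and 85 in tt and 24 in control), then Pde3a, a cardiac phosphodiesterase, at 0.18 (21 in dC10mut and 22 in NTG, and 27 in tt and 11 in control), Alpk2 at 0.19 (26 in dC10mut and 29 in NTG, and 34 in tt and 8 in control) and Pcdhgb7 at 0.21 (32 in dC10mut and 30 in NTG, and 49 in tt and 14 in control). The median difference over the compared genes was 0.72. Of these 5, all but Cpn2 have an exon of another gene opposite them, and Pcdhgb7 shares its last exons with the other genes of its cluster.

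For Slc7a11 the nearest of 2626 genes with at least 20 counts in all, with the same kinds of symbol left out, were less alike. Upf3a, of nonsense-mediated decay, stood at 1.04 (4 in dC10mut and 7 in NTG, and 0 in tt and 9 in control), Megf11 at 1.05 (5 in dC10mut and 18 in NTG, and 3 in tt and 20 in control), Prxl2b at 1.23 (8 in dC10mut and 12 in NTG, and 1 in tt and 11 in control), Col1a2 at 1.30 (2 in dC10mut and 7 in NTG, and 2 in tt and 11 in control) and Rbm4b at 1.30 (3 in dC10mut and 10 in NTG, and 3 in tt and 15 in control), against a median of 2.23. These few genes share 4 libraries and low counts, and nothing further is drawn from their likeness. Col1a2 is a fibroblast marker; the 8 fibroblast markers summed to 41 counts in dC10mut and 51 in NTG, and 39 in tt and 71 in control, with Postn at 0. The 8 endothelial markers summed to 229 in dC10mut and 223 in NTG, and 133 in tt and 262 in control, with Pecam1, Tek, Emcn and Egfl7 at 0. These sums and that of the macrophage markers were lower in tt than in control, and their part in the Slc7a11 counts was not tested.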

How the data were processed

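Heart RNA was measured in 4 libraries, 1 per group, so groups were compared without replicates and no p-value is given. Per the labels' protocols, poly(A) RNA was captured and a strand-preserving kit was used. Per the submitters' processing notes, STAR, HTSeq and the mouse build mm10 were used; no source used here gives versions, counting mode or strand setting. The authors deposited whole-number counts for 41449 RefSeq transcripts, without normalisation. Rows matched a symbol through RefSeq names for 41252 transcripts and did not for 197, and counts were summed per symbol.

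Counts were scaled with TMM factors (edgeR 4.0.16). Log2 ratios had 0.5 added as a prior count, in proportion to each library, and exact Clopper-Pearson conditional binomial 95% intervals, and levels used exact Poisson intervals. A call needed a log2 ratio of at least 1 either way, an interval excluding equality and 1 CPM in a library. Exons and opposite-strand partners came from GENCODE M21 (GRCm38) with bedtools 2.31.1, and promoters from RefSeq (GRCm38.p6). The ratio rule was run on simulated Poisson counts, which hold counting error only, with changes set only in well-counted genes. That run says nothing of variation between hearts, of PCR copies or of changes in genes as low as Slc7a11. The genes, gene lists and named-gene rule (every called list gene, up to 4 of the most counted per list, and the 5 genes most like Slc3a1 and Slc7a11) were chosen with earlier results of these data known. Other list genes were named for their role after their values were seen. Alternatives changed the scaling, prior count, low-count filter and summing over transcripts.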

Additional observations from a re-analysis of the deposited data

Results flagged for a closer look

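Slc3a1 had log2 ratios of opposite sign in the pairs. Its log2 ratio was 1.51 in tt against control, with 481 counts in tt and 159 in control, while dC10mut against NTG gave -0.53, with 356 counts in dC10mut and 440 in NTG. The HCM difference was not called. Control was also below NTG (log2 ratio -1.65, -1.92 to -1.39), and tt did not differ from NTG beyond counting error (-0.14, -0.33 to 0.05). With 1 library per group the difference between the pairs was not tested across replicates. The row shares 601 exonic bases with Prepl on the other strand, and whether it holds Prepl reads was not tested.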

How the results depend on the processing

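Of 94 alternative values for 20 results, 92 stayed within the counting interval or within 1.5 times the count reported. No log2 ratio of Slc7a11 or Slc3a1 changed sign, and direction does not apply to the counts of calls or to the shares. Some alternatives could not change a value. Slc7a11 and Slc3a1 have a single transcript row each, and 1 count already exceeds the limit of 1 CPM. With library totals in place of TMM, 84 genes rather than 138 were called lower in control against NTG. The split of higher and lower calls there was 156 and 84 in place of 114 and 138. That scaling raised every log2 ratio of this comparison by 0.13. In dC10mut against NTG it gave 169 higher and 166 lower in place of 144 and 203. The larger side of the split thus changed in each of these comparisons. With at least 10 counts required in a library, 1 list gene rather than 2 was called lower in dC10mut, since Slc1a1 held 5 counts at most. Slc3a1 ranged from -0.60 to -0.44 in the HCM pair, 1.503 to 1.533 in the DCM pair and -1.69 to -1.52 in control against NTG. Slc7a11 in the HCM pair ranged from -3.89 to -2.91 and in the DCM pair from -4.67 to -2.80, both smallest in size with a prior count of 2. List genes called higher in dC10mut numbered 5 with TMM from genes without an opposite-strand exon (Gstk1 and Taldo1 lost) and 8 with library totals (Dpp8 gained). No paired analysis was possible because each group has 1 library, and no library could be left out for the same reason. The counts of Slc7a11 in dC10mut and tt, and of Prepl and Slc3a2 in every library, are too few to rank.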
